A study of Mus musculus with 24 samples.

Results

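Heat shock proteins are chaperones, proteins that hold, fold and refold other proteins. The cytosolic HSP70 and HSP90 machines work in sequence on newly made and misfolded proteins, the HSP60 and HSP10 ring does so inside mitochondria, and BiP does so in the endoplasmic reticulum (ER). Under heat or other protein stress the transcription factor HSF1 switches on several of their genes through short repeated elements in the promoters, whereas unfolded proteins in the ER act on BiP through a separate pathway. In the mouse embryo, Hspa1a and Hspa1b are known as some of the earliest genes transcribed from the zygote's own genome.

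A set of 10 such genes, of 55291 genes counted, was followed by symbol through 12 total RNA libraries of mouse embryos: Hspa1a, Hspa1b and Hspa8 (cytosolic HSP70s), Hspa5 (BiP), Hsp90aa1 and Hsp90ab1 (cytosolic HSP90s), Hspd1 and Hspe1 (mitochondrial HSP60 and HSP10), Hsph1 (an HSP110 exchange factor of HSP70) and Hsf1. The embryos came from B6D2F1 (BDF1) matings, and their labels name the background strain BDF2. One male pronucleus per zygote had received an antisense oligonucleotide (ASO, a short synthetic strand that pairs with an RNA and leads to its loss) at 20 µM. MERVL-KD embryos received a mix of 3 ASOs against the endogenous retrovirus MERVL, control embryos scrambled ASO, so injection and culture were common to all groups, and uninjected embryos were not analysed here. There were 2 biological replicates of each condition at the 2-cell, 4-cell and 8-cell stages, each library being a pool of 30 zona-free embryos. The labels give 1.5 days post-coitum for the 2-cell stage and 2.5 days for both later stages.

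Library totals ranged from 28167085 to 41482526 counts. The internal MERVL sequence MERVL-int took 6.33% to 6.57% of the counts of control 2-cell libraries and 0.143% to 0.157% in MERVL-KD, and at the later stages 1.07% to 2.07% against 0.0278% to 0.0544%, so every library followed its label. Replicates differed by more than sampling noise. Among markers of other cells, 10 cumulus and granulosa genes summed to 2.33 to 7.56 CPM (counts relative to the scaled library total). The 6 sperm genes summed to 0.290 to 2.04 CPM. The cumulus gene Ptx3 was at 0 in both libraries of 5 of the 6 groups. In 2-cell embryos the cumulus and granulosa sum was 7.44 to 7.56 CPM in MERVL-KD and 5.64 to 6.09 in control. Star stood there at 4.35 and 4.02 against 1.88 and 2.15 CPM, and 1 of 4 tested markers passed as higher. The part of these markers was not tested. Of markers of the embryo's own course, 8 oocyte genes summed to 1275 to 1351 CPM in control 2-cell embryos and to 155 to 157 CPM in control 4-cell embryos, all 8 passing as lower. The sum of 8 genes of later preimplantation embryos was 108 to 109 CPM in control 2-cell and 533 to 589 CPM in control 8-cell embryos, carried by Tead4, Pou5f1 and Nanog, while Sox2 was at 6.19 and 5.34 CPM in control 2-cell and 1.38 and 0.536 in control 8-cell embryos.

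Hspa1a and Hspa1b encode nearly the same HSP70 and are single-exon neighbours on the minus strand of chromosome 17 (GRCm38), Hspa1a at chr17:34969190-34972156 and Hspa1b at chr17:34956436-34959238, with 9951 bases between them. Their promoters are shown because the inducible pair is the part of the set that moved most between conditions. RefSeq windows (250 bases before to 50 after a gene's start, GRCm38.p6) existed for 6 of the 10 genes. Hspa8, Hsp90aa1, Hsp90ab1 and Hsf1 had none and were not searched for elements. The 250 bases upstream of the start are printed 5′ to 3′ on the gene's strand, Hspa1a from chr17:34972157-34972406 and Hspa1b from chr17:34959239-34959488, with the heat shock element pair GAANNTTC, 2 inverted units of the HSF1 element, in capitals.
Hspa1a: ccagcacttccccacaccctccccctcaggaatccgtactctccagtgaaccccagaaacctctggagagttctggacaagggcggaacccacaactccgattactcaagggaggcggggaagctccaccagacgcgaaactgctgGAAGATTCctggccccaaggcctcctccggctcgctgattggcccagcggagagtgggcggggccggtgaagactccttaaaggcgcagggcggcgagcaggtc
Hspa1b: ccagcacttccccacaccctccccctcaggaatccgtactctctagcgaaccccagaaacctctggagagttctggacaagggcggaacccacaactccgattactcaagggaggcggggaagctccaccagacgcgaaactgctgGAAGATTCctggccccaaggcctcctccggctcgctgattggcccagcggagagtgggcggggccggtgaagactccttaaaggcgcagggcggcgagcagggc
The 2 stretches differ at 3 positions, C44T, T47C and T249G, counted from 1 at the 5′ end with the Hspa1a base first. Both hold 1 such pair, 104 bases before the start.

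The pair GAANNTTC or its other order TTCNNGAA (each reads the same on both strands, and the 2 can overlap) was present in windows of 5 of the 6 members, Hspa1a, Hspa1b, Hspd1, Hspe1 and Hsph1, against 17.0% of all 27025 genes with a window. Hspd1 and Hspe1 stand head to head on chromosome 1, and one run at chr1:55088059-55088076 with 3 overlapping pairs lies in windows of both. Hspa5 had neither pair and was the only one of the 6 searched members with the ER stress element. This element is the letters CCAAT and CCACG with any 9 bases between them (both strands searched), and 37 of the 27025 genes (0.137%) hold it. The Hspa5 match, at chr2:34772025-34772043 on the plus strand and 65 bases before the start, is printed with the fixed letters in capitals.
Hspa5 element: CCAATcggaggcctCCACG
These matches describe letters in a window and not binding.

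In control embryos Hspa8, both HSP90 genes and the mitochondrial pair were higher at the 4-cell than at the 2-cell stage, Hspa1a, Hspa1b, Hsf1 and Hsph1 were lower, and Hspa5 did not pass. Together the 10 genes took 0.192% to 0.195% of the counts of control 2-cell libraries, 0.738% to 0.742% at the 4-cell stage and 0.928% to 0.961% at the 8-cell stage. A member passed where its adjusted p was under 0.05, and was called where the change was also at least 2-fold. From the 2-cell to the 4-cell stage 5 members passed as higher, where 30.3% of all 21950 tested genes and repeat families did, and 4 as lower, where 31.1% did. All 5 and 3 of the 4 were called, against 23% and 25.9% of all tested. All 10 genes were tested in every comparison. Library totals are relative, so a share that rises cannot be told apart from RNA lost elsewhere in the embryo, nor fewer cells from less RNA per cell.

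Hspa8, the constitutive HSC70 of the cytosol, rose furthest. It stood at 262 and 238 CPM in the control 2-cell libraries, 1893 and 1757 at the 4-cell stage and 3282 and 3235 at the 8-cell stage. The stages did not overlap. Its log2 fold change was 2.89 ± 0.09 (SE) from the 2-cell to the 4-cell stage, a 7.42-fold rise (edgeR quasi-likelihood test, adjusted p = 7.93e-12), and 0.85 ± 0.08 from there to the 8-cell stage (adjusted p = 1.82e-04). Hsp90ab1, the constitutive HSP90, was at 524 and 619 CPM in control 2-cell embryos, 3033 and 3180 at the 4-cell stage and 4325 and 4546 at the 8-cell stage, with log2 changes of 2.47 ± 0.08 (adjusted p = 1.82e-11) and 0.52 ± 0.08 (adjusted p = 0.00161). Its stress-inducible paralog Hsp90aa1 rose less in the first step, from 655 and 710.3 to 1788 and 1760 CPM (log2 1.40 ± 0.07, adjusted p = 6.79e-10), and by 0.50 ± 0.07 in the second (adjusted p = 0.00124). Per kilobase of exon, Hsp90ab1 stood 1.05 to 1.14 times above Hsp90aa1 in control 2-cell libraries and 2.22 to 2.43 times in the later control libraries.

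The mitochondrial pair rose in the first step. Hspd1 went from 77.0 and 74.2 CPM in control 2-cell libraries to 169 and 152 at the 4-cell stage (log2 1.11 ± 0.10, adjusted p = 1.70e-07). Hspe1 went from 14.5 and 13.7 to 33.3 and 25.9 CPM (log2 1.10 ± 0.17, adjusted p = 4.99e-05). From the 4-cell to the 8-cell stage neither passed, with log2 changes of 0.05 ± 0.09 and 0.12 ± 0.16. Hspd1 stood 2.73 to 3.26 times above Hspe1 per kilobase in the 6 control libraries. Their annotated ends overlap by 112 bases on opposite strands, and the strand setting of the counting is not given in the sources used here. Rows of 7 annotated Hspe1 copies held 3.95% to 16.8% of the Hspe1 counts and those of 5 Hspd1 copies 0.545% to 1.34%, so a part of the Hspe1 reads is uncertain.

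Hspa1a and Hspa1b were at their highest in 2-cell embryos. Hspa1a stood at 6.95 and 6.25 CPM in the control 2-cell libraries (218 and 227 counts), 1.14 and 1.42 at the 4-cell stage (40 and 41 counts) and 1.78 and 1.94 at the 8-cell stage. Hspa1b stood at 22.3 and 16.4, then 7.92 and 7.16, then 8.89 and 10.2 CPM. Both fell from the 2-cell to the 4-cell stage without overlap, by 2.35 ± 0.34 on the log2 scale for Hspa1a (adjusted p = 3.61e-05) and by 1.33 ± 0.21 for Hspa1b (adjusted p = 8.60e-05), and from the 4-cell to the 8-cell stage neither passed (adjusted p = 0.385 and 0.370). The copies share much of their sequence: 38.1% of all 150-base windows of Hspa1a, and 40.5% of those of Hspa1b, occur without a mismatch in the other copy, and only uniquely placed reads were counted. The level of each gene is therefore uncertain. With the uniquely placed counts of both added up, the fall was 1.53 ± 0.19 on the log2 scale (log2 fold change -1.53, edgeR adjusted p = 8.02e-06). Reads that fit both copies are missing from this sum too.

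Hsf1, the regulator itself, fell as well, from 137 and 142 CPM in control 2-cell embryos to 23.5 and 22.0 at the 4-cell stage, a log2 fold change of -2.59 ± 0.11 (adjusted p = 1.53e-10). It lay at 18.1 and 16.5 CPM at the 8-cell stage, a further log2 change of -0.39 ± 0.11 that just passed (adjusted p = 0.0493) and did not pass with any 1 of the 6 control libraries left out (adjusted p from 0.0564 to 0.239). Hsph1 changed little, from 151 and 180.4 to 125 and 114 CPM (log2 -0.44 ± 0.11, adjusted p = 0.00230, and -0.28 with adjusted p = 0.0505 without control 2-cell replicate 2). Hspa5 stood at 199 and 215, 226 and 201, and 139 and 148 CPM in control 2-cell, 4-cell and 8-cell libraries, with no passing change in the first step (log2 0.07 ± 0.09, adjusted p = 0.518) and a fall of 0.56 ± 0.09 on the log2 scale in the second (log2 fold change -0.56, adjusted p = 0.00296). In that second step of control embryos 3 members passed as higher (4.77% of all tested) and 2 as lower (4.02%), none of them by 2-fold (0.592% and 1.35% of all tested).

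Compared per kilobase of exon (RPKM, CPM divided by exon length), Hsp90ab1 was the highest and Hspa1a the lowest at every stage. Hsp90ab1 stood at 190.5 ± 22.3 RPKM (SD, n = 2) in control 2-cell, 1036 ± 34.6 in control 4-cell and 1479 ± 52.1 in control 8-cell embryos, and Hspa1a at 2.22 ± 0.167, 0.431 ± 0.069 and 0.627 ± 0.039. The libraries of Hsp90ab1 and its paralog Hsp90aa1 (174 ± 9.96) overlapped in control 2-cell embryos and were apart later. Hsp90aa1 and Hspa8 were close in control 4-cell embryos, at 451 ± 4.94 and 424 ± 22.4 RPKM, without overlap, and had changed places by the 8-cell stage (632 ± 13.7 and 758 ± 7.65). Hspa8 was close to Hspa5 in control 2-cell embryos, at 1.09 to 1.30 times its level, and 21.5 to 23.2 times above it in control 8-cell embryos. Hsf1 held 19.7 ± 0.539 RPKM at the 2-cell stage, near Hsph1 at 22.8 ± 2.83, and 2.44 ± 0.158 at the 8-cell stage, below Hspa1b.

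**Figure D1:**
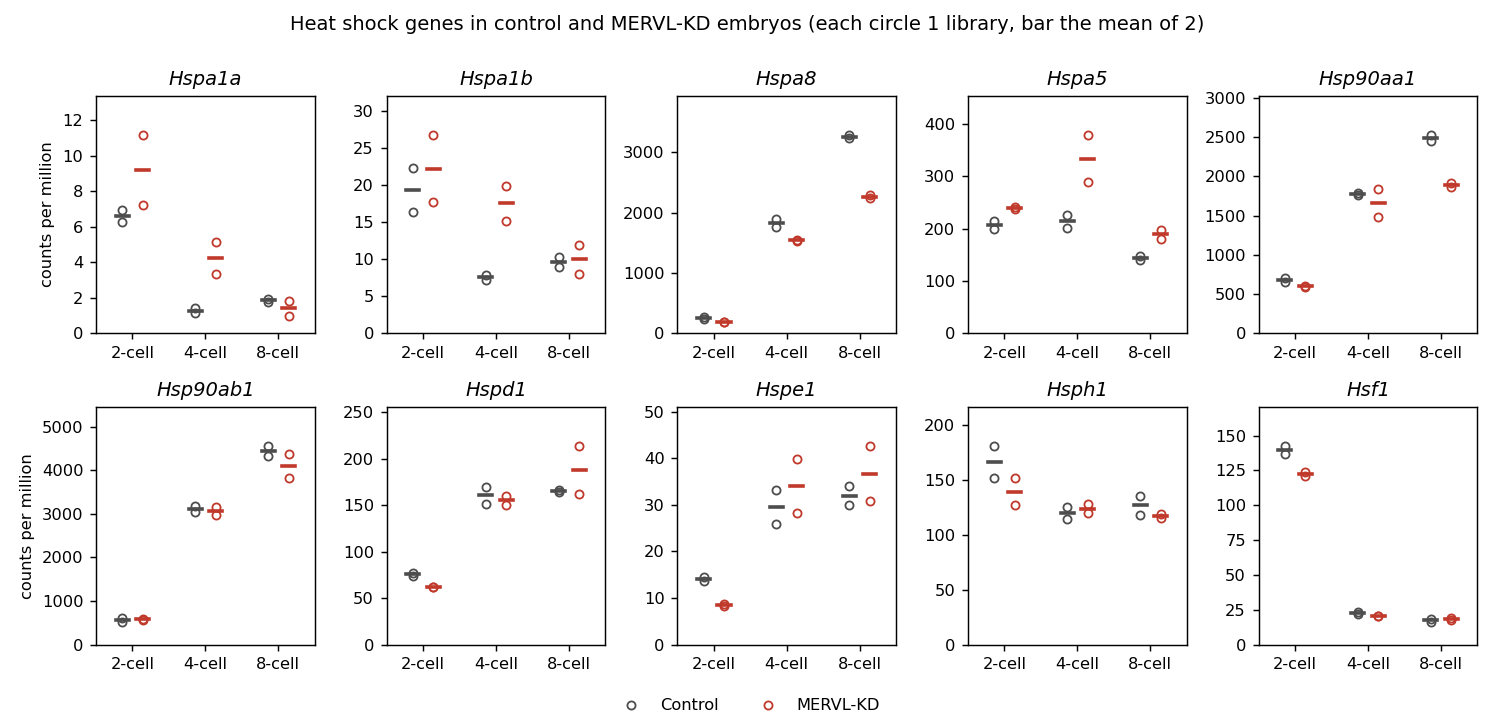
Levels of the 10 genes in CPM (vertical axes from 0, each on its own scale) at the 3 stages, control in grey and MERVL-KD in red; each circle is 1 library and each bar the mean of 2. Hspa8, Hsp90aa1, Hsp90ab1, Hspd1 and Hspe1 were higher at the 4-cell stage than at the 2-cell stage and Hspa1a, Hspa1b and Hsf1 lower in control embryos, and the red circles of Hspa1a, Hspa1b and Hspa5 lie above the grey ones at the 4-cell stage.

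The comparison of MERVL-KD with control embryos asked which transcripts differed after the knockdown, stage by stage. The paper reports that MERVL-KD embryos were delayed in development, and that the cleavage stage of the collected embryos was checked by eye. Control and MERVL-KD pools of the same stage may therefore differ in developmental pace. The part of this delay in the differences below was not tested, so they do not by themselves show dependence on MERVL. The largest difference among the members was in the 4-cell embryo, where both copies of the inducible HSP70 were higher after knockdown. Hspa1a stood at 5.11 and 3.36 CPM in MERVL-KD 4-cell libraries (186 and 115 counts) against 1.14 and 1.42 in control (40 and 41 counts), and the groups did not overlap. Its log2 fold change was 1.73 ± 0.38, 3.33-fold with a 95% confidence interval of 1.86 to 5.96 (adjusted p = 0.0145). Hspa1b stood at 15.1 and 19.9 CPM against 7.92 and 7.16 in control, a log2 fold change of 1.22 ± 0.21, 2.33-fold with an interval of 1.70 to 3.20 (adjusted p = 0.00348). With the uniquely placed counts of both added up, they were higher by 1.31 ± 0.18 (edgeR adjusted p = 9.05e-04). The 4-cell levels of MERVL-KD embryos lay between those of control 4-cell and control 2-cell embryos for Hspa1a, and for Hspa1b overlapped the control 2-cell range. Without MERVL-KD 4-cell replicate 1 the Hspa1a change was 1.39 and no longer passed (adjusted p = 0.0866), while Hspa1b passed with each library left out (1.01 to 1.40).

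Hspa5 was the third member to pass at the 4-cell stage, and the only one to pass at all 3. BiP transcripts stood at 288 and 379 CPM in MERVL-KD 4-cell libraries against 226 and 201 in control, a log2 fold change of 0.65 ± 0.12 (1.56-fold, adjusted p = 0.00755). In 2-cell embryos they stood at 240.4 and 238 CPM against 199 and 215 (log2 0.29 ± 0.08, adjusted p = 0.0285), and in 8-cell embryos at 198 and 181 against 139 and 148 (log2 0.41 ± 0.09, adjusted p = 0.0259). MERVL-KD libraries were the higher ones in all 3 stages without overlap. The 4-cell change passed with each library left out (0.44 to 0.82). The 2-cell change did not pass without control replicate 1 (0.23, adjusted p = 0.239), control replicate 2 (0.33, adjusted p = 0.0556) or MERVL-KD replicate 1 (0.27, adjusted p = 0.0855), nor with the replicate number as a block (adjusted p = 0.0569), and the 8-cell change did not without control replicate 1 (0.37, adjusted p = 0.160) or control replicate 2 (0.45, adjusted p = 0.0567).

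In all, 3 members passed as higher at the 4-cell stage, where 4.83% of the 20505 tested genes and repeat families did. Of these, 2 were called at 2-fold, where 2.58% of all tested were called higher and 1.87% lower. None passed as lower by edgeR (5.75% of all tested), with 1 at an unadjusted p under 0.05, Hspa8, and none by DESeq2. Of 8 marker genes of the 2-cell embryo 1 passed, Zfp352, which was lower. None passed as higher by edgeR or DESeq2, with 1 higher at an unadjusted p under 0.05. The sum of the 8 genes (97.0 to 106 CPM in MERVL-KD and 109 to 116 in control) was mostly Tdpoz4. Of 8 oocyte genes none passed by edgeR or DESeq2, with 4 higher and 2 lower at an unadjusted p under 0.05 and sums of 164 to 169 against 155 to 157 CPM. Of 8 genes of later embryos 2 passed as higher, Krt8 at 24.6 and 28.1 against 4.20 and 5.52 CPM and Krt18 at 10.2 and 7.39 against 3.23 and 3.40, and 1 as lower, Tead4 at 126 and 160 against 223 and 198. The part of these markers in the result was not tested.

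The members that passed as lower after knockdown were Hspa8, Hsp90aa1 and Hspe1. Hspa8 stood at 182 and 185 CPM in MERVL-KD 2-cell libraries against 262 and 238 in control (log2 -0.37 ± 0.09, adjusted p = 0.0106), and at 2284 and 2248 against 3282 and 3235 in 8-cell libraries (log2 -0.52 ± 0.07, 0.700 times the control level, adjusted p = 9.01e-04). At the 4-cell stage its values were 1551 and 1537 against 1893 and 1757 CPM, also without overlap, but the change of -0.24 ± 0.08 did not pass (adjusted p = 0.0911). The 8-cell change passed with each library left out, and the 2-cell change did not without control replicate 1 (-0.30, adjusted p = 0.0904). Hsp90aa1 was lower in 8-cell embryos, at 1865 and 1915 CPM against 2524 and 2447 (log2 -0.39 ± 0.07, adjusted p = 0.00763; -0.36 with adjusted p = 0.0847 without control replicate 1). Hsp90ab1 did not pass at any stage, with log2 changes of 0.10, -0.02 and -0.11 from the 2-cell to the 8-cell stage and 95% intervals that reached from -0.27 to 0.28, though it passed as lower at the 8-cell stage without MERVL-KD replicate 2 (-0.21, adjusted p = 0.00974).

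Hspe1 passed as lower at the 2-cell stage, at 8.22 and 8.77 CPM (346 and 310 counts) against 14.5 and 13.7 in control (456 and 498 counts). The log2 fold change was -0.65 ± 0.18 (0.637 times, adjusted p = 0.0232), and it did not pass without control replicate 1 (-0.61, adjusted p = 0.111) or MERVL-KD replicate 1 (-0.62, adjusted p = 0.0611). Its neighbour Hspd1 stood at 62.3 and 62.2 against 77.0 and 74.2 CPM, a log2 change of -0.20 ± 0.10 that did not pass (adjusted p = 0.229). Per kilobase, Hspd1 stood 3.96 to 4.23 times above Hspe1 in MERVL-KD 2-cell libraries and 2.95 to 3.02 times in control. At the 4-cell stage Hspe1 was at 28.3 and 39.8 CPM in MERVL-KD libraries, one between the control values and one above both. The differences of its effect between the 2-cell and the later stages did not pass (adjusted p = 0.0543 and 0.0569). At the 8-cell stage Hspd1 passed only without MERVL-KD replicate 2 (0.37, adjusted p = 0.00371).

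At the 2-cell stage 1 member passed as higher (6.74% of the 21347 tested) and 2 as lower (7.23%), none by 2-fold (4.26% and 2.22% of all tested). Hspa1a and Hspa1b did not pass, at 7.20 and 11.1 CPM against 6.95 and 6.25 (log2 0.55 ± 0.23, adjusted p = 0.135) and 17.7 and 26.7 against 22.3 and 16.4 (log2 0.28 ± 0.20, adjusted p = 0.417). Without MERVL-KD 2-cell replicate 1 both passed, at 0.82 (adjusted p = 0.0123) and 0.54 (adjusted p = 0.0293). Normalization mattered at this stage: fold changes were taken after TMM scaling within the compared libraries, while levels are on 1 TMM scale over all 12, and scaling by library size alone moved the median of all tested features by 0.29 on the log2 scale. Under that scaling Hspa8 and Hspe1 no longer passed (-0.08 and -0.36) and Hspa1a and Hsp90ab1 did (0.84 and 0.39). The oocyte genes summed to 835 to 930.1 CPM in MERVL-KD 2-cell embryos against 1275 to 1351 in control, with 4 of 8 passing as lower. Much of this sum was Bmp15, at 273 and 341 against 615 and 522 CPM. Zp3 went the other way, at 29.2 and 26.4 against 21.5 and 24.1 CPM. No oocyte gene passed as higher by edgeR or DESeq2, with 1 at an unadjusted p under 0.05. The 2-cell genes summed to 409 to 502 against 718 to 798 CPM, with 5 of 8 passing as lower. Of 8 genes of later embryos 1 passed, Tead4, which was higher, and the part of these markers in these results was not tested.

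At the 8-cell stage 1 member passed as higher (1.62% of the 19153 tested) and 2 as lower (3.51%), again none by 2-fold (0.632% and 1.07% of all tested). Hspa1a and Hspa1b overlapped between the groups, at 1.82 and 1.00 against 1.78 and 1.94 CPM and at 11.9 and 7.98 against 8.89 and 10.2 CPM, with 95% intervals of -1.38 to 0.59 and -0.44 to 0.58 on the log2 scale. The genes of later embryos summed to 413 to 459 CPM in MERVL-KD 8-cell embryos against 533 to 589 in control, with 2 of 8 passing as lower, and their part was not tested. Hsph1 and Hsf1 passed in no comparison of MERVL-KD with control, with log2 changes of -0.17, 0.05 and -0.11 for Hsph1 and -0.10, -0.15 and 0.08 for Hsf1 from the 2-cell to the 8-cell stage.

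**Figure D2:**
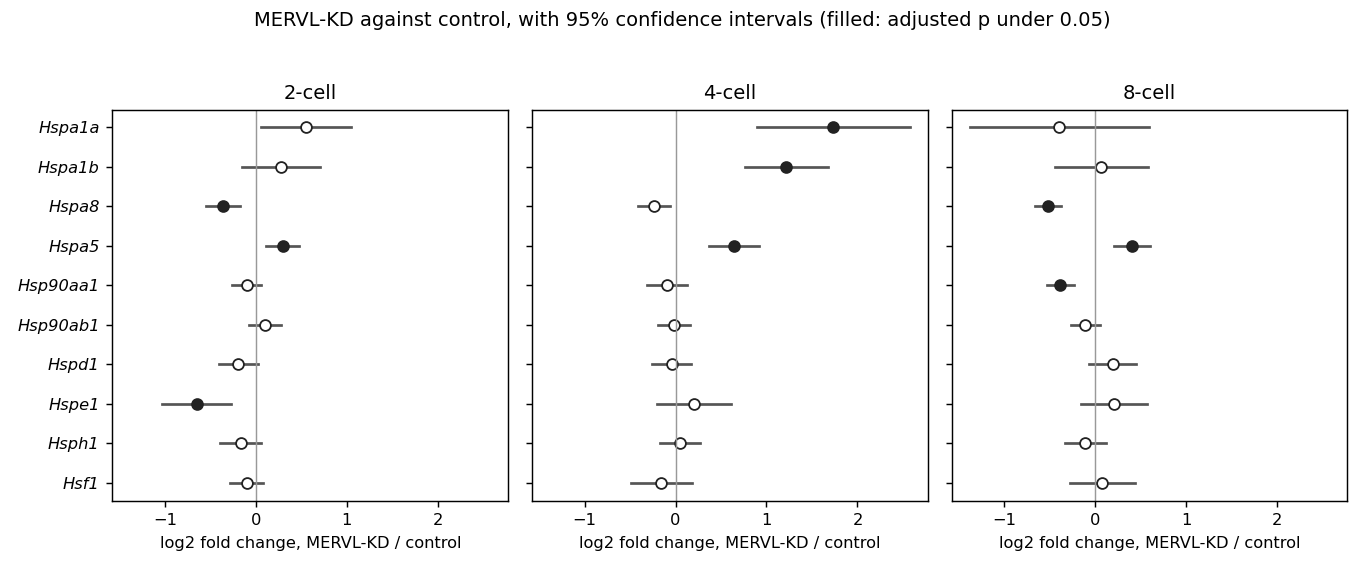
Log2 fold changes of MERVL-KD against control embryos for the 10 genes at each stage, with 95% confidence intervals from the edgeR fit; filled circles passed an adjusted p of 0.05. Hspa1a and Hspa1b stand apart at 1.73 and 1.22 in the 4-cell panel, Hspa5 lies above 0 in all 3 panels, and Hspa8 lies below 0 in all 3 and passed at the 2-cell and 8-cell stages.

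The stages were also compared within MERVL-KD embryos. From the 2-cell to the 4-cell stage 6 passed as higher (28.6% of the 23263 tested) and 2 as lower (27.7%), and from the 4-cell to the 8-cell stage 2 as higher (0.997%) and 2 as lower (1.63%). At 2-fold 5 were called higher (22.2% of all tested) and 2 lower (23.3%) in the first step, and none higher (0.185%) and 1 lower (1.04%) in the second. Of the second pair of rises, Hsp90ab1 (0.41 ± 0.09, adjusted p = 0.0425) did not pass with any of 5 of the 6 libraries left out. Hspa8 rose by 3.09 ± 0.09, Hsp90ab1 by 2.42 ± 0.10 and Hspe1 by 2.02 ± 0.21 on the log2 scale in the first step. Hsf1 fell from 121 and 124 to 20.3 and 20.4 CPM (log2 fold change -2.57 ± 0.13, adjusted p = 4.67e-09). Hspa5 rose in the first step (0.50 ± 0.12, adjusted p = 0.00441, and 0.29 with adjusted p = 0.0715 without MERVL-KD 4-cell replicate 2) and fell in the second (log2 fold change -0.82 ± 0.13, adjusted p = 0.00768).

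For the inducible pair, Hspa1b went from 17.7 and 26.7 CPM in MERVL-KD 2-cell embryos to 15.1 and 19.9 at the 4-cell stage, with overlap (log2 -0.32 ± 0.25, adjusted p = 0.292), and to 11.9 and 7.98 at the 8-cell stage (log2 -0.83 ± 0.26, adjusted p = 0.110; -1.13 with adjusted p = 0.0472 without MERVL-KD 8-cell replicate 1). Hspa1a fell by 1.10 ± 0.36 in the first step (log2 fold change -1.10, adjusted p = 0.0191) and by 1.60 ± 0.38 in the second (log2 fold change -1.60, adjusted p = 0.0483). The first did not pass without MERVL-KD 2-cell replicate 2 (-0.77, adjusted p = 0.187) or 4-cell replicate 2 (-0.82, adjusted p = 0.121). The second did not pass without any of 4 of the 6 libraries (adjusted p from 0.0506 to 0.223), these being both 2-cell libraries, 4-cell replicate 1 and 8-cell replicate 2.

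Whether the effect of knockdown differed between stages was tested as a difference of differences over all 12 libraries. No member passed by edgeR. Of the 24850 tested features, 2.47% passed as higher and 1.65% as lower for 4-cell minus 2-cell, 0.302% and 0.338% for 8-cell minus 4-cell, and 2.35% and 1.63% for 8-cell minus 2-cell. At an unadjusted p under 0.05 there were 4 higher, 4 lower and 2 higher members in that order, and DESeq2 passed 1 in each. The share of all features at an unadjusted p or by DESeq2 is not given here. These counts are therefore not read as a result about the members. For 4-cell minus 2-cell the 4 smallest adjusted p-values were those of Hspe1 (0.93 ± 0.27 on the log2 scale, adjusted p = 0.0543), Hspa1b (1.02 ± 0.34, adjusted p = 0.0977), Hspa5 (0.43 ± 0.16, adjusted p = 0.149) and Hspa1a (1.26 ± 0.49, adjusted p = 0.176). For 8-cell minus 4-cell Hspa1a came to -2.14 ± 0.52 (adjusted p = 0.0645) and Hspa1b to -1.16 ± 0.34 (adjusted p = 0.134), and for 8-cell minus 2-cell Hspe1 came to 0.93 ± 0.27 (adjusted p = 0.0569). These comparisons share libraries, and the other members had larger adjusted p-values. Differences this close to the threshold passed with single libraries left out. For 8-cell minus 2-cell Hspe1 did so without any 1 of 5 of the 12 libraries (0.85 to 1.05). The others were, for 4-cell minus 2-cell, Hspe1 without control 4-cell replicate 1, MERVL-KD 4-cell replicate 1 or MERVL-KD 8-cell replicate 1 (1.13, 1.16 and 0.94), Hspa1b without MERVL-KD 2-cell replicate 2 (1.33), Hspa5 without MERVL-KD 4-cell replicate 1 (0.62), and Hspa1a, 8-cell minus 4-cell, without MERVL-KD 4-cell replicate 2 or 8-cell replicate 1 (-2.38 and -2.62).

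The genes whose levels ran most like Hspa1a over the 12 libraries, among 11557 genes, were Bahd1, Ccne2, Etv5, Trim36 and Anks1b, with Pearson's r of log2 CPM from 0.951 to 0.970, and for Hspa1b Anks1b, Ripk4, Hspa1a, Rhbdf2 and Nkd1, with r from 0.925 to 0.945. The 12 points share stages and scaling, so r describes and does not test. In MERVL-KD 4-cell embryos Ccne2, a cyclin of the G1/S step, stood at 28.6 ± 1.33 CPM (SD, n = 2) against 13.1 ± 0.822 in control (log2 1.13 ± 0.16, adjusted p = 9.84e-04), Etv5, an ETS factor, at 33.0 ± 0.903 against 22.8 ± 0.536 (log2 0.54 ± 0.14, adjusted p = 0.0318), and Bahd1 at 13.3 ± 2.34 against 8.83 ± 0.288 (log2 0.60 ± 0.21, adjusted p = 0.0941). The likeness used these libraries, so the changes add no independent evidence. Among the members themselves Hspa8, Hsp90aa1 and Hsp90ab1 had r from 0.986 to 0.994 with each other, Hsf1 and Hsp90ab1 -0.995, and Hspa5 at most 0.532 with any member.

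Genes of the wider chaperone network also differed between control 4-cell and 2-cell embryos, and each count is read beside the 30.3% of all tested features that passed as higher and the 31.1% that passed as lower. The rings that fold actin and tubulin and their feeder (CCT and prefoldin) had 13 of 14 tested genes higher at the 4-cell than at the 2-cell stage and none lower by edgeR, with none at an unadjusted p under 0.05 and none by DESeq2, and a median log2 change of 1.45 against 0.00 over all tested features. Cct4, a CCT subunit, rose by 3.09 ± 0.10 (adjusted p = 1.21e-11). Of 15 other HSP90 genes and HSP90 cochaperones 11 were higher and 4 lower (median 1.23), led by the HSP70-HSP90 adaptor Stip1 (2.15 ± 0.08, adjusted p = 6.73e-11). Of 24 J-domain cochaperones, the partners that load clients onto HSP70, 15 were higher and 5 lower (median 0.50), of 9 HSP70 exchange factors 6 and 1 (median 1.14), and of 12 mitochondrial quality control genes 9 and 2 (median 1.01). Dnaja1 went from 121 and 133 to 646 and 651 CPM (log2 2.37 ± 0.08, adjusted p = 2.65e-11), and the exchange factor Bag3 from 23.1 and 26.8 to 105 and 104 (log2 2.09 ± 0.11, adjusted p = 1.03e-09).

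The ER response had 7 of 23 genes higher, near the share over all features, and 12 lower (median -0.26), and the other HSP70 family members had 2 of 10 higher and 5 lower (median -1.24). A list of 4 other heat shock factors and 2 proteins that bind them had 1 of 6 higher and 3 lower (median -1.29), the lower ones being the factor Hsf5 and the binding proteins Hsf2bp and Hsbp1. Hsf2, a second heat shock factor, rose from 11.0 and 9.52 to 43.8 and 35.4 CPM (log2 1.98 ± 0.15, adjusted p = 4.49e-08) as Hsf1 fell, and rose again to 83.9 and 74.2 at the 8-cell stage (log2 1.00 ± 0.14, adjusted p = 0.00118). Of 14 cytosolic HSF1 targets outside the 10 genes, 12 were tested, 5 were higher and 4 lower (median 0.13). Only 4 of 9 small heat shock proteins were abundant enough to test, and 2 were lower.

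**Figure D3:**
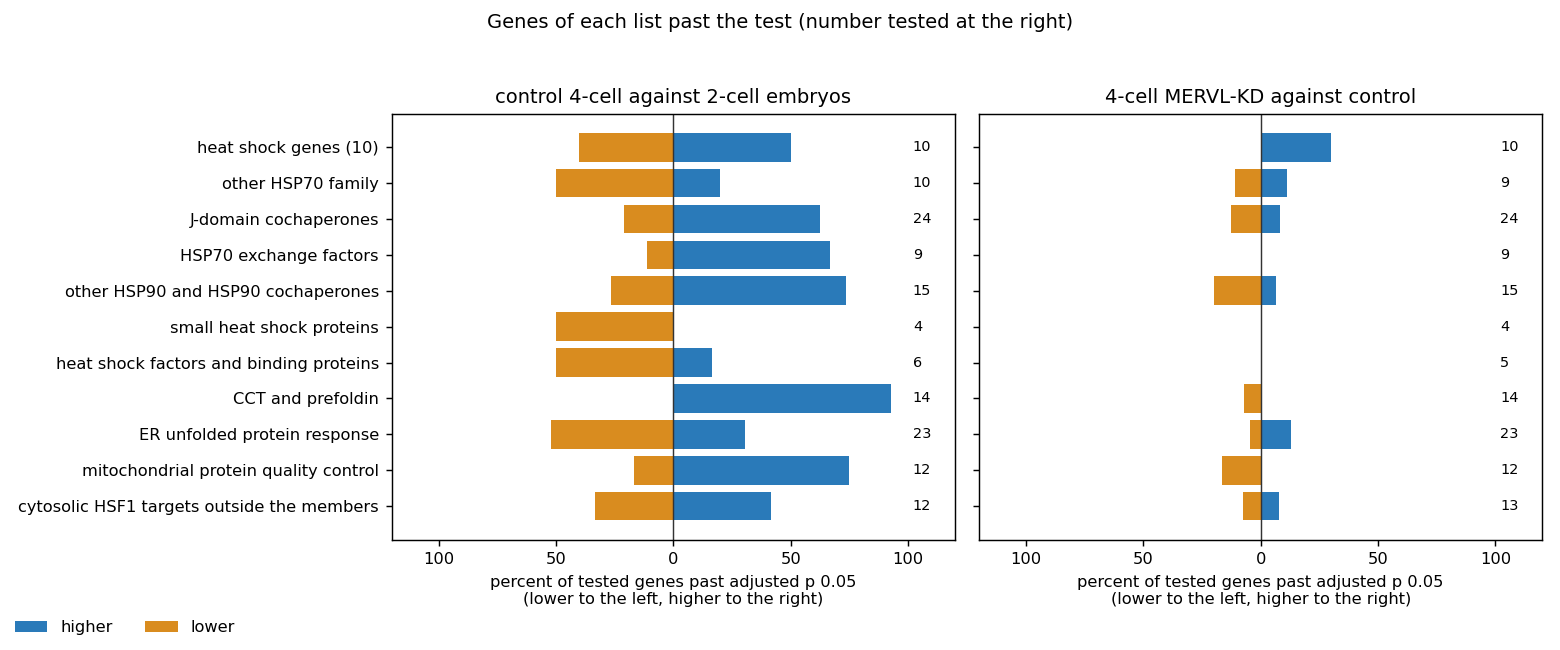
Percent of the tested genes of each list that passed an adjusted p of 0.05 as higher (blue, to the right) or lower (orange, to the left) in control 4-cell against 2-cell embryos (left panel) and in 4-cell MERVL-KD against control embryos (right panel), with the number tested at the right of each row. CCT and prefoldin have 13 of 14 genes higher in the left panel (30.3% of all tested features) and 1 of 14 lower in the right panel (5.75%).

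Between MERVL-KD and control embryos fewer genes of each list passed than between these stages, and the same held over all tested features. Of all features 6.74% passed as higher and 7.23% as lower in 2-cell embryos. The shares were 4.83% and 5.75% in 4-cell and 1.62% and 3.51% in 8-cell embryos, and each list count is read beside them. In 4-cell embryos 3 of 23 genes of the ER response passed as higher and 1 as lower, with a median of 0.14 against 0.01 over all tested features. The higher ones, chosen after their values were seen, like all list genes named here below 2-fold, were the ER HSP90 Hsp90b1 at 74.2 and 112 CPM against 47.4 and 47.1 (log2 0.98 ± 0.17, adjusted p = 0.00448), the ER lectin chaperone Calr at 195 and 232 against 150 and 131 (log2 0.61 ± 0.11, adjusted p = 0.00519), and the BiP cochaperone Dnajc3 at 71.2 and 87.6 against 49.9 and 58.3 (log2 0.56 ± 0.13, adjusted p = 0.0206). All 3 stood above control without overlap. They were picked by these same values, so this adds no independent evidence. Dnajc3 did not pass without control 4-cell replicate 1 (0.45, adjusted p = 0.133) or MERVL-KD 4-cell replicate 2 (0.40, adjusted p = 0.0565). The lower one was the ER stress sensor Atf6, at 37.3 and 34.0 against 51.1 and 52.1 CPM (log2 -0.53 ± 0.13, adjusted p = 0.0208), which did not pass without either control 4-cell library (adjusted p = 0.0750 and 0.0976). In 2-cell embryos 2 genes of the list passed as higher, Sdf2l1 and Sel1l, and 1 as lower, Hyou1 (median 0.08), and in 8-cell embryos none did by edgeR, with 4 higher and 2 lower at an unadjusted p under 0.05 and 1 lower by DESeq2 (median 0.12).

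Other HSP70 genes moved in single cases. Hspa2, best known as the HSP70 of male germ cells, stood at 32.7 and 39.8 CPM in MERVL-KD 4-cell embryos against 3.52 and 7.89 in control (log2 2.69 ± 0.33, adjusted p = 0.00154) and at 18.4 and 25.5 against 6.71 and 7.04 in 8-cell embryos (log2 1.68 ± 0.21, adjusted p = 5.83e-04). In 2-cell embryos it was at 46.7 and 37.4 against 51.4 and 59.5 CPM. MERVL-KD embryos were thus above control at both later stages without overlap. Its 4-cell change did not pass without MERVL-KD replicate 1 (2.81, adjusted p = 0.0532) or replicate 2 (2.54, adjusted p = 0.0637). The 6 sperm genes summed to 0.614 to 0.824 CPM in MERVL-KD and 0.340 to 0.417 CPM in control 4-cell embryos. Hspa9, the mitochondrial HSP70 that works ahead of HSP60 and HSP10, stood at 159 and 174 against 243 and 253 CPM in 2-cell embryos (log2 -0.49 ± 0.09, adjusted p = 0.00109), lower like Hspe1. In that stage 1 of the 10 other HSP70 genes passed as higher and 3 as lower. Of 12 mitochondrial quality control genes 2 passed as lower (the other was the protease gene Yme1l1). The shares over all tested features were 6.74% higher and 7.23% lower.

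Among the regulators, Hsf4 was called higher in 2-cell embryos at 3.80 and 2.63 against 0.351 and 0.358 CPM (log2 3.26 ± 0.43, adjusted p = 1.02e-04), a low level in every library. Hsf2 was lower in 8-cell embryos, at 47.4 and 55.0 against 83.9 and 74.2 CPM (log2 -0.62 ± 0.12, adjusted p = 0.0127; -0.52 with adjusted p = 0.0712 without control replicate 1). Of the cytosolic HSF1 targets outside the 10 genes, 1 of 12 passed as higher and 1 as lower in 2-cell embryos (6.74% and 7.23% of all tested). In 4-cell embryos 1 and 1 of 13 did (4.83% and 5.75%). In 8-cell embryos none and 2 of 11 did (1.62% and 3.51%), with none higher by edgeR at an unadjusted p under 0.05 or by DESeq2. The 8-cell genes were Dnajb1, the HSP40 partner of inducible HSP70, at 22.2 and 27.4 against 44.8 and 38.7 CPM (log2 -0.74 ± 0.15, adjusted p = 0.0164; -0.63 with adjusted p = 0.0788 without control replicate 1), and Fkbp4. None of the 9 HSP70 exchange factors passed at any stage by edgeR, with 2, 0 and 1 at an unadjusted p under 0.05 from the 2-cell to the 8-cell stage and none by DESeq2. In 4-cell embryos no other list had more than 3 genes past the test in either direction.

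HSP90 cochaperones had 2 called genes. Fkbp5, a steroid receptor cochaperone, stood at 18.8 and 18.9 against 38.4 and 42.7 CPM in 4-cell embryos (log2 -1.10 ± 0.14, adjusted p = 5.98e-04) and at 11.9 and 10.9 against 26.2 and 23.9 in 8-cell embryos (log2 -1.13 ± 0.17, adjusted p = 0.00228), and at 135 and 141 against 149 and 150 in 2-cell embryos. Unc45a, a myosin and HSP90 cochaperone, stood at 18.2 and 11.1 against 6.19 and 5.48 CPM in 2-cell embryos (log2 1.42 ± 0.23, adjusted p = 7.32e-04). Of the 15 genes of the list 1 passed as higher and 3 as lower in 2-cell embryos (6.74% and 7.23% of all tested). In 4-cell embryos 1 and 3 did (4.83% and 5.75%), and in 8-cell embryos 0 and 2 (1.62% and 3.51%). Small heat shock proteins had Hspb1 higher in 2-cell embryos, at 22.8 and 20.5 against 11.2 and 13.6 CPM (log2 0.89 ± 0.16, adjusted p = 0.00157). The CCT and prefoldin list, which moved most with stage, had 1 lower gene of 14 at each stage. From the 2-cell to the 8-cell stage 7.23%, 5.75% and 3.51% of all tested features passed as lower.

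**Figure D4:**
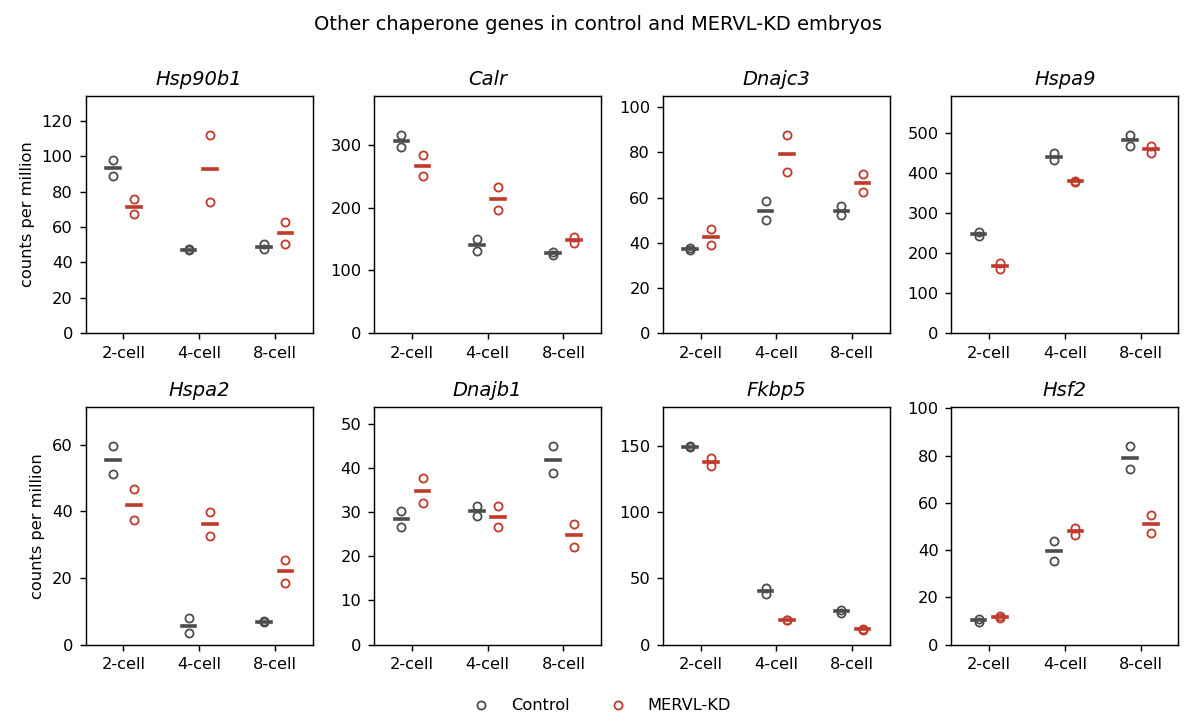
Levels of 8 further chaperone and regulator genes in CPM (vertical axes from 0, each on its own scale), control in grey and MERVL-KD in red; each circle is 1 library and each bar the mean of 2. At the 4-cell stage the red circles of Hsp90b1, Calr, Dnajc3 and Hspa2 lie above the grey ones and those of Hspa9 and Fkbp5 below, and at the 8-cell stage those of Dnajb1 and Hsf2 lie below.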

How the data were processed

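Total RNA was sequenced by the authors with 150-base paired reads, and the deposited counts are whole read counts per gene and repeat family that the authors made by unique alignment with STAR 2.5.3a to GRCm38 and counting with featureCounts. The counts were used as deposited. Low counts were mostly even, so mates were probably counted apart and counts overstate fragments. Accessibility libraries were not analysed here.

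Genes were kept by filterByExpr, scaled by TMM and tested in edgeR 4.0.16 (R 4.3.3) with robust quasi-likelihood fits, Benjamini-Hochberg adjusted over all tested features. DESeq2 1.42.0, other scalings, filters and fits, and each library left out were the alternatives. The scripts were tested on simulated data. The authors' group labels were used, and p-values measure only the spread between these pools. Replicate numbers did not pair the libraries. Named list genes were those called at 2-fold, at most 4 per list and comparison, with the exceptions stated. The members and lists were chosen with earlier results of these data known. Promoters were RefSeq windows.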

Additional observations from a re-analysis of the deposited data

Results flagged for a closer look

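No member had an effect of the knockdown that differed between stages past the threshold, and 17 differences among the list genes did (edgeR quasi-likelihood test of the difference, log2 scale, adjusted over all 24850 tested features). For 4-cell minus 2-cell 2.47% of all tested features passed as higher and 1.65% as lower. The shares were 2.35% and 1.63% for 8-cell minus 2-cell, and 0.302% and 0.338% for 8-cell minus 4-cell. The number of list genes tested is not given here, so the 17 are not read as more than these shares. For 4-cell minus 2-cell the list genes that passed were Hspa2 (3.08 ± 0.39, adjusted p = 6.39e-04), Hsp90b1 (1.36 ± 0.22, adjusted p = 0.00102), Calr (0.81 ± 0.15, adjusted p = 0.00322) and Dnaja2 (0.50 ± 0.13, adjusted p = 0.0295) above 0, and Fkbp5 (-0.99 ± 0.16, adjusted p = 9.55e-04) and Unc45a (-1.48 ± 0.28, adjusted p = 0.00391) below 0. Calr did not pass without MERVL-KD 4-cell replicate 2 (0.56).

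For 8-cell minus 2-cell the values above 0 were Hspa2 2.07 (adjusted p = 0.00784), Yme1l1 0.70 (adjusted p = 0.00554), Hyou1 0.70 (adjusted p = 0.0104), Dnaja2 0.51 (adjusted p = 0.0259) and Hspa9 0.50 (adjusted p = 0.0232). Those below 0 were Fkbp5 -1.02 (adjusted p = 7.41e-04), Dnajb1 -1.05 (adjusted p = 0.00728), Hsf2 -0.81 (adjusted p = 0.0270), Unc45a -1.10 (adjusted p = 0.0298) and Hsf4 -4.71 (adjusted p = 0.0337). Without single libraries Hspa2, Hspa9, Hsf2, Hsf4 and Unc45a each no longer passed (for example Unc45a -0.69 without MERVL-KD 2-cell replicate 1 and Hspa9 0.38 without MERVL-KD 8-cell replicate 2). For 8-cell minus 4-cell Hsf2 came to -0.90 (adjusted p = 0.0393), and it no longer passed without any 1 of 5 libraries.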

How the results depend on the processing

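Scaling by library size alone, which moved the median of all features by up to 0.30 on the log2 scale, turned the direction of several small changes that had not passed. In MERVL-KD against control these were Hsp90aa1 0.19, Hspd1 0.091, Hsph1 0.12 and Hsf1 0.19 in 2-cell embryos. In 4-cell embryos they were Hsp90ab1 0.045 and Hspd1 0.019, and in 8-cell embryos Hsp90ab1 0.017 and Hsph1 0.022. From the 4-cell to the 8-cell stage they were Hspd1 -0.16, Hspe1 -0.093 and Hsph1 -0.12 in control and Hspe1 -0.014 in MERVL-KD embryos. The list gene Ptges3, which had passed as lower in MERVL-KD 2-cell embryos, came to 0.0049 under this scaling and no longer passed. Summing Hspa1a and Hspa1b gave 0.00011 at the 8-cell stage, and a minimum of 10 counts gave Hspa5 -0.014 in control 4-cell against 2-cell embryos. The cause was not tested.

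Counts of members that passed moved as follows. At the 2-cell stage library size alone gave 3 higher and 0 lower, and the replicate block and the fit of all 12 libraries gave 0 higher. From the 4-cell to the 8-cell stage in control embryos 1 was lower with DESeq2 size factors, the non-robust fit, the replicate block and the fit of all 12 libraries. In MERVL-KD embryos that step gave 1 higher with library size alone, and 1 lower with DESeq2 size factors and with the non-robust fit. For the differences between stages, 4-cell minus 2-cell had 2 higher with a minimum of 1 count and 1 with counts halved or DESeq2, 8-cell minus 4-cell had 2 lower with a minimum of 1 count and 1 with a minimum of 10 counts or DESeq2, and 8-cell minus 2-cell had 1 higher with a minimum of 1 count, counts halved or DESeq2 and 1 lower with library size alone.

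With each library left out, log2 changes that crossed 0 ranged, for MERVL-KD against control, from -0.053 to 0.54 (Hspa1b) and -0.021 to 0.20 (Hsp90ab1) in 2-cell embryos. Those of 4-cell embryos ranged from -0.25 to 0.047 (Hsp90aa1), -0.057 to 0.018 (Hsp90ab1), -0.13 to 0.038 (Hspd1), -0.063 to 0.42 (Hspe1) and -0.020 to 0.12 (Hsph1), and those of 8-cell embryos from -0.26 to 0.33 (Hspa1b), -0.022 to 0.37 (Hspd1), -0.048 to 0.42 (Hspe1) and -0.20 to 0.0033 (Hsph1). Between stages they ranged from -0.026 to 0.17 (Hspa5, control 4-cell against 2-cell), -0.040 to 0.16 (Hspd1), -0.062 to 0.33 (Hspe1) and -0.036 to 0.18 (Hsph1) for control 8-cell against 4-cell, and -0.14 to 0.37 (Hspe1) in MERVL-KD embryos. The counts that follow also stand without the share of all features, and they describe the fits and not the members. Counts of passing members ranged from 0 to 2 higher and 0 to 2 lower in 2-cell embryos, 0 to 2 higher and 1 to 3 lower in 8-cell embryos, 1 lower throughout for control 8-cell against 4-cell, 1 to 2 lower for MERVL-KD 4-cell against 2-cell, and 1 to 2 higher and 1 to 3 lower for MERVL-KD 8-cell against 4-cell. For the differences they ranged from 0 to 2 higher, 0 to 1 lower and 0 to 1 higher, in the order above.

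Libraries shared only a replicate number: 0 of 15 pairs of groups had deviations correlated above 0.1 (-0.016 to 0.020). With the replicate block, Hspa5 at the 2-cell stage (0.29, edgeR adjusted p = 0.0569) no longer passed. Hsf1 in control 8-cell against 4-cell embryos (-0.39, edgeR adjusted p = 0.0572) did not pass either, and no other member changed sides of the threshold. Hspa1a rests on 39 to 63 counts in 6 of the 8 libraries of 4-cell and 8-cell embryos, so small changes there were not detectable at this depth.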
